A study of Mus musculus with 18 samples.

Results

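Thrsp and Mid1ip1, the genes of the Spot 14 family, were followed mouse by mouse in the livers of male CD-1 mice fed bisphenol A, a monomer of polycarbonate plastics. The members were all probes whose gene name in the scanner files is Thrsp or Mid1ip1, which gave 2 of the 41174 probes that are not controls, 1 for each gene. CD-1 is an outbred mouse stock, so the animals of a group are not genetically identical. The 18 mice were 9 weeks old and had eaten a sucrose-rich powdered diet for 28 days, with 6 mice in each of 3 groups: a control diet with no bisphenol A, a low dose of 50 µg/kg/day and a high dose of 5000 µg/kg/day. The doses are averages planned from an assumed food intake, not intakes measured in single animals. Total liver RNA of each mouse was labelled with Cy3 and hybridised to 1 Agilent 1-colour array. Both genes were selected on their measured levels in these arrays, in control, low-dose and high-dose mice, so those levels are described here without a test.

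Thrsp encodes Spot 14, a small acidic nuclear and cytosolic protein of liver, fat and lactating mammary gland, named for its place on a gel and known for its fast induction by thyroid hormone and by carbohydrate feeding. Mid1ip1 encodes its closest relative, MIG12, which binds the microtubule protein MID1 and promotes the assembly of acetyl-CoA carboxylase, the enzyme that makes malonyl-CoA, into active polymers. Spot 14 can pair with MIG12 and modify that effect. In rodent liver the transcription of Thrsp is raised by the thyroid hormone receptors, by the glucose-responsive factor ChREBP and by the insulin-responsive factor SREBP-1c.

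The start regions of both genes are shown because the same high-dose mice were high for both members, and the members differed in how far their groups lay apart. Each is 250 bases before and 50 bases after the transcription start (RefSeq, build GRCm38.p6), at chr7:97417501-97417800 on the minus strand for Thrsp and at chrX:10717115-10717414 on the plus strand for Mid1ip1. Capitals mark the CCAAT box, the GC box with its letters GGGCGG, and the E-box letters CACCTG, each on either strand.
Thrsp: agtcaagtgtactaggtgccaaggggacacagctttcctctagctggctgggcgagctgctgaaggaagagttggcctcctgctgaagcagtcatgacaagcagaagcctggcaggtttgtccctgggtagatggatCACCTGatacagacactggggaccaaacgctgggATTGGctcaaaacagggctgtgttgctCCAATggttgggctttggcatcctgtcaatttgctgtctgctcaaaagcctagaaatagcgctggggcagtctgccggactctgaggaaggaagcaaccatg
Mid1ip1: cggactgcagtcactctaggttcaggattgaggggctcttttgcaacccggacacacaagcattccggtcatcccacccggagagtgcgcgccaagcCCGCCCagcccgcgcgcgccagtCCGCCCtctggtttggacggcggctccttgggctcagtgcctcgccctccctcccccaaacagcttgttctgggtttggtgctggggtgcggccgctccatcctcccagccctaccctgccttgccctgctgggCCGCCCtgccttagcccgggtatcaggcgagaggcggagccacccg

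The Thrsp window held 54.3% G and C and 4 CpG dinucleotides, and the Mid1ip1 window 68.0% and 22, against medians of 52.7% and 7 over all 32851 promoters of the table. CCAAT, the core of the site of NF-Y, a factor that acts with SREBP at lipogenic promoters, stood 2 times in Thrsp, at bases -79 to -75 on the reverse strand and -52 to -48 on the forward strand, counted back from -1 just before the start. It was not found in the Mid1ip1 window, and 37.4% of all promoters hold it. The GC box GGGCGG, the core of the site of Sp1, stood 3 times in Mid1ip1, all on the reverse strand, at -153 to -148, -130 to -125 and 5 to 10, and not in Thrsp. It is held by 35.7% of promoters. The E-box letters CACCTG stood once in Thrsp, at -113 to -108, and in 20.2% of promoters. Neither window held CACGTG, the E-box core of ChREBP sites (7.2% of promoters), AGGTCA, the core hexamer of thyroid hormone and other nuclear receptor sites (16.3%), TCACNCCAC, a form of the sterol regulatory element (1.2%), or TATAAA (13.6%). Both strands were searched, and no 2 of the motifs found overlapped. A match is a run of letters and not a measured site, and the distant control regions of Thrsp lie outside this window.

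The Thrsp probe lies on chromosome 7 at bases 97292244 to 97292303, minus strand, and the Mid1ip1 probe on chromosome X at bases 9876527 to 9876586, plus strand, both on mouse build mm8 as the scanner files give them. Which exon or untranslated part these probes cover was not analysed here, and each gene rests on a single spot per array. Both spots were well above background on all 18 arrays, and none was flagged as an outlier. The Mid1ip1 spot was saturated on no array. The Thrsp spot was saturated on 1, that of low-dose mouse 1, with an intensity of 57883, so the level of that mouse is a lower bound. The next brightest, low-dose mouse 6 at 54109, was not saturated.

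Levels are log2 background-subtracted intensities scaled by subtracting each array's own 75th percentile, so that 1 unit is a doubling relative to the array. Thrsp stood at 3.27, 3.72, 4.62, 4.03, 3.96 and 4.86 in control mice 1 to 6. In low-dose mice 1 to 6 it stood at 7.37, 6.70, 6.62, 6.59, 6.63 and 7.41. In high-dose mice 1 to 6 it stood at 4.25, 6.03, 4.50, 6.59, 4.38 and 6.52. All 6 low-dose mice were thus above all 6 control mice. The high-dose mice fell into separate sets of values: mice 2, 4 and 6 lay above every control mouse, and mice 1, 3 and 5 lay among the controls. The highest high-dose mouse touched the lowest low-dose mouse, both at 6.59 to 2 decimals.

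**Figure D1:**
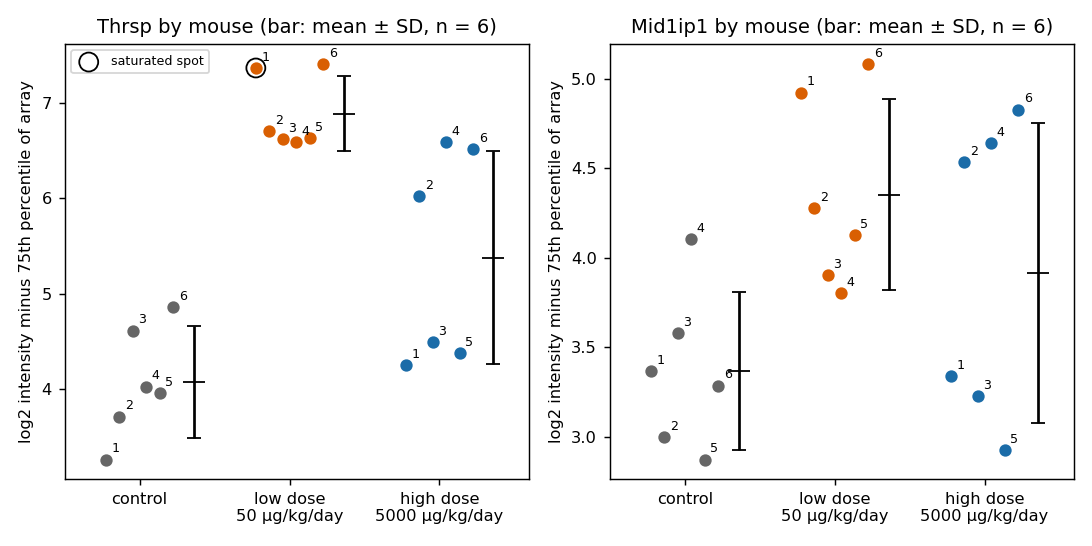
Level of Thrsp (left) and Mid1ip1 (right) in each mouse, as log2 intensity scaled to each array's 75th percentile, for control, low-dose and high-dose mice. Numbers are the mice, bars the mean ± SD of 6 mice, and the ring marks the 1 saturated spot. Low-dose mice sit between 6.59 and 7.41 for Thrsp, above all controls, while high-dose mice 2, 4 and 6 sit apart from mice 1, 3 and 5 for both genes.

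The order of the group means was low dose, high dose, control for both genes. Thrsp averaged 6.89 ± 0.39 in low-dose mice and 4.08 ± 0.59 in control mice (SD, n = 6 each), a difference of 2.81 ± 0.41 (SE of the limma fit), or 7.02-fold on the linear scale. This gap is larger than the spread within either group. Groups in which every low-dose mouse was above every control mouse were found for 0.691% of the genes with all 12 values, and Thrsp was chosen with its contrast known. With the saturated spot left out the difference was 2.72.

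Thrsp averaged 5.38 ± 1.12 in high-dose mice, against 4.08 ± 0.59 in control mice, a difference of 1.30 ± 0.41 or 2.47-fold. The ranges overlapped: 3 of 6 high-dose mice were above all controls, though all 6 were above the control median of 4.00. The mean of the high-dose group describes no mouse in it, since none lay between 4.50 and 6.03. High-dose mice were lower than low-dose mice by 1.51 ± 0.41 on the log2 scale, at 0.351 times the level, and their ranges met in 1 mouse of each group. These comparisons share groups, the low and high doses being set against the same controls, and are not independent.

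Mid1ip1 stood at 3.37, 3.00, 3.58, 4.10, 2.87 and 3.29 in control mice 1 to 6. In low-dose mice 1 to 6 it stood at 4.92, 4.28, 3.90, 3.80, 4.13 and 5.08. In high-dose mice 1 to 6 it stood at 3.34, 4.53, 3.23, 4.64, 2.93 and 4.83. Here 4 of 6 low-dose mice were above all controls, and mice 3 and 4 lay below control mouse 4. The high-dose mice that lay above all controls were again mice 2, 4 and 6, as for Thrsp.

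Mid1ip1 averaged 4.35 ± 0.53 in low-dose mice and 3.37 ± 0.44 in control mice (SD, n = 6 each), a difference of 0.98 ± 0.34 or 1.98-fold. It averaged 3.92 ± 0.84 in high-dose mice, against 3.37 ± 0.44 in control mice, a difference of 0.55 ± 0.34 or 1.46-fold. Between the doses the difference was -0.44 ± 0.34, high minus low, at 0.739 times the level. All neighbouring groups in the order of Mid1ip1 overlapped, and the high-dose difference was smaller than the SD of the high-dose group.

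The same sets of high-dose mice stood apart in background-subtracted intensity, before any scaling. High-dose mice 2, 4 and 6 gave 18231, 34194 and 25035 units and high-dose mice 1, 3 and 5 gave 5878, 6093 and 5524, against 1717 to 7048 in controls. Low-dose mice gave 22644 to 57883 units of Thrsp signal. For Mid1ip1 the same 3 high-dose mice gave 6474.7, 8835.2 and 7766.4 units and the others 2017.7 to 3115.2, against 1658.8 to 3474.3 in controls. In these units the 3 high-dose mice were again above every control for both genes, and the other 3 within the range of the controls.

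The spread of Thrsp within the high-dose group was wider than that of most genes. Its SD of 1.12 stood at the 94.7th percentile of 17690 genes, and that of Mid1ip1, 0.84, at the 90.5th, where the median gene had an SD of 0.29. In control mice both genes also varied more than the median gene, whose SD was 0.25. There the SD of Thrsp, 0.59, ranked 2931 from the widest of the 17690 genes, and that of Mid1ip1, 0.44, ranked 4615. A liver sample holds several cell types, and fewer cells of a type cannot be told apart here from less RNA per cell. Of 15 hepatocyte markers, 14 had a probe and all 14 were above background on all 18 arrays. Their summed level ranged from 10.82 to 11.34 in control mice, from 10.66 to 11.05 in low-dose mice and from 10.68 to 11.09 in high-dose mice. Alb, Fgb, Trf and Ahsg, among the brightest in this sum, were saturated on all 18 arrays and Apoa1 on 17. The sum therefore tells little about differences in hepatocyte content between the groups. Of 12 fat cell markers, which matter because fat also makes Spot 14, Adipoq, Plin1, Lep and Ucp1 were above background on no array. On all 18 arrays 5 of the 12 were above background: Fabp4, Cidec, Plin4, Pparg and Lipe. Adrb3 was above background on 4 arrays, 3 of them of control mice, and Retn on 1. Cfd, the fat cell protein adipsin, was above background in low-dose mice 1, 2 and 6 and in high-dose mice 1, 2 and 3, and in 0 control mice. It differed from control by 0.71 at the low dose (adjusted p = 0.632) and by 1.25 at the high dose (adjusted p = 0.702), and its part in the levels of Thrsp was not tested. The summed level of the list ranged from 2.41 to 3.01 in control mice, from 2.21 to 2.97 in low-dose mice and from 1.73 to 3.03 in high-dose mice.

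The arrays differed in brightness and in place. Their 75th percentile of intensity was 230.1 ± 43.2 units in control arrays, 295.4 ± 44.0 in low-dose arrays and 291.8 ± 34.1 in high-dose arrays (SD, n = 6 each). With array brightness as a covariate, an alternative added after seeing the data, the low-dose difference of Thrsp was 2.38 and that of Mid1ip1 0.83. Control arrays were at positions 1 and 4 of a slide, those of low-dose mice mostly at 2 and 3, and position was in no model. Among high-dose mice, both arrays at position 4 (mice 4 and 6) had Thrsp at 6.52 to 6.59 and both at position 3 (mice 1 and 5) at 4.25 to 4.38. The pair at position 2 (mice 2 and 3) had 4.50 to 6.03, so the values differed there within 1 position. Where a dosed mouse shared a position with controls, the values were as follows. At position 1, low-dose mouse 5 had Thrsp at 6.63 and the 3 control mice at 3.27 to 4.03. At position 4, the 2 high-dose mice had 6.52 to 6.59 and the 3 control mice 3.72 to 4.86. For Mid1ip1 the values were 4.13 in low-dose mouse 5 against 2.87 to 4.10 in controls at position 1, and 4.64 to 4.83 in high-dose mice against 3.00 to 3.58 in controls at position 4. The part of brightness and position in the results was not tested further.

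Slides, taken as arrays with the same scan time in the file headers, gave within-slide values. On the 4 slides with both groups, Thrsp in low-dose mice exceeded that in controls by 2.64, 2.26, 3.45 and 3.28. High minus control gave 0.19, 0.17, 1.49 and 2.31 on the same slides, and high minus low gave -0.03, -2.45, -2.09, -1.96 and -0.97 over all 5. Since all low-dose mice were above all controls for Thrsp, a positive low-dose difference on each of these slides was given in advance. The high-dose difference of Thrsp was near 0 on 2 of 4 slides. For Mid1ip1, low minus control gave 0.95, -0.04, 2.21 and 1.53, and high minus control 0.01, -0.61, 1.00 and 1.53. High minus low of Mid1ip1 gave 0.74, -0.94, -0.58, -1.21 and 0.01, so no comparison of Mid1ip1 had 1 sign on all slides. On slide 4, high-dose mouse 6 had Thrsp at 6.52 and high-dose mouse 5 at 4.38, so both sets of values occurred on 1 slide.

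**Figure D2:**
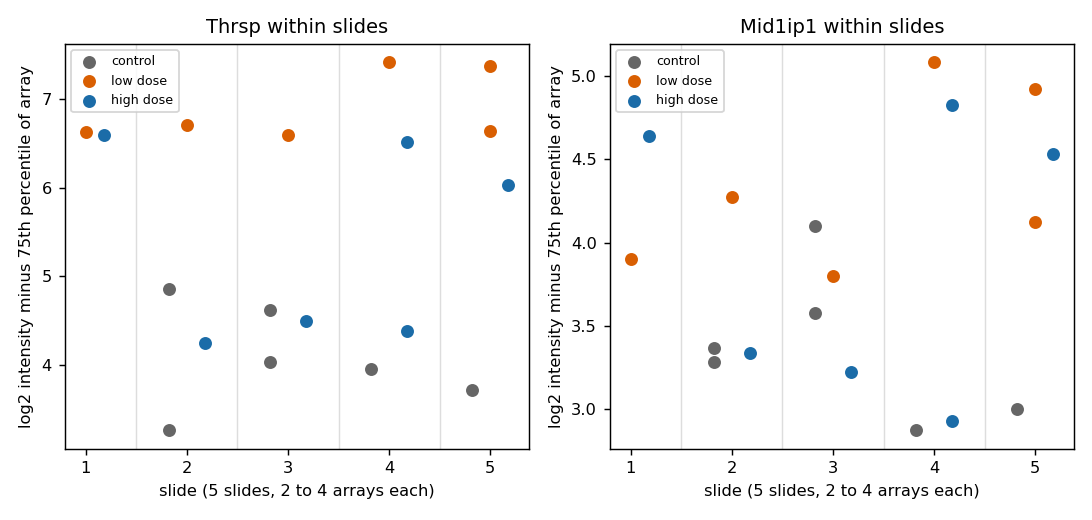
Level of Thrsp (left) and Mid1ip1 (right) by slide, as log2 intensity scaled to each array's 75th percentile, with a point per mouse coloured by dose. Every low-dose point of Thrsp lies above every control point over all slides, and so also within each of slides 2 to 5. Slide 4 holds a high-dose mouse at 4.38 and another at 6.52.

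Thrsp and Mid1ip1 were also set against each other among mice of 1 diet, as a description without a test, since these are the values on which the genes were selected. Among the 6 low-dose mice Pearson's r was 0.972 and Spearman's rho was 1.0. Low-dose mice 1 and 6 were highest for both genes, and without these 2 the r of the remaining 4 mice was 0.930. The saturated Thrsp spot makes the level of low-dose mouse 1 a lower bound, so its rank against mouse 6, and with it the rho, is not known. Both values of a mouse share its array and its scaling, and the low-dose values depended on the scaling. Spearman's coefficient was 0.714 with quantile normalisation, 0.771 with the array median and 0.6 with normexp background correction. Pearson's r was 0.963, 0.973 and 0.922 under these settings, and 0.592, 0.703 and -0.662 without the 2 highest mice, so it rests on mice 1 and 6 there. Among control mice r was 0.160 and rho 0.257, with r = 0.417 without control mice 6 and 1. No r is given for the high-dose group, whose mice form separate sets, and the difference between the groups' r was not tested.

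**Figure D3:**
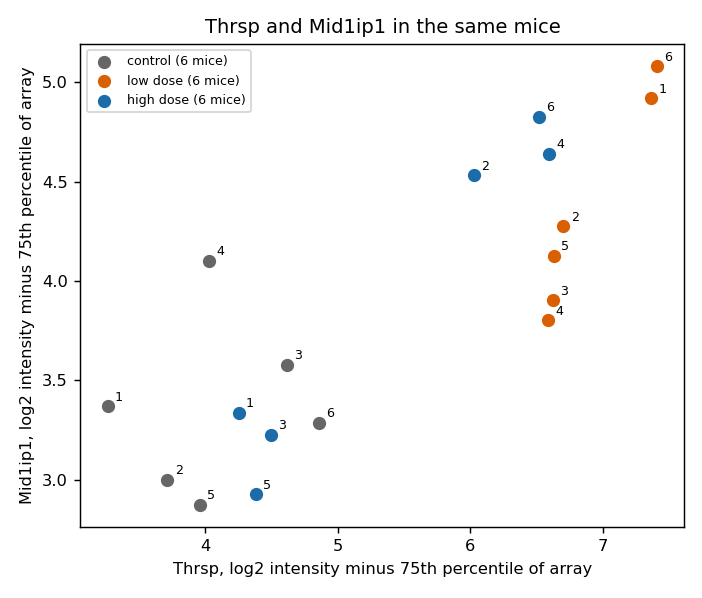
Mid1ip1 against Thrsp in each of the 18 mice, both as log2 intensity scaled to each array's 75th percentile, coloured by dose and numbered by mouse. High-dose mice 2, 4 and 6 lie at the upper right near the low-dose mice, and high-dose mice 1, 3 and 5 lie among the controls at the lower left.

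The genes with the most similar pattern were taken by Pearson's r over the 18 mice after each group's mean was subtracted, with no test, among 17212 genes. Both values of a mouse come from 1 array with 1 scaling, and the spread of the high-dose group weighs most in this measure. For Thrsp those reported were Pnpla3 (r = 0.905), a lipase of lipid droplets, Pnpla5 (0.880), a relative of it, Fasn (0.862), the fatty acid synthase, and Rbm15 (0.859), an RNA-binding protein. Over the 12 low-dose and control mice alone, also centred by group, r with Thrsp was 0.693 for Pnpla3, 0.959 for Pnpla5, 0.723 for Fasn and 0.664 for Rbm15. Mid1ip1 ranked 12 in likeness to Thrsp, at 0.805, and 0.500 over the 12 mice without the high dose. Rbm15 shared the within-group pattern but not the dose pattern, with r = 0.259 on the values as measured, where the other 3 had 0.947 to 0.963.

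For Mid1ip1 the nearest genes were Ccdc127 (r = 0.889), Golt1b (0.883), a Golgi transport protein, Pnpla3 (0.857), Pxdc1 (0.850) and Hspa2 (0.849), a heat shock protein of the HSP70 family. Over the 12 mice without the high dose these were 0.805, 0.778, 0.597, 0.738 and 0.671 in the same order. Thrsp ranked 22 in likeness to Mid1ip1. Pnpla3 was the only gene named as near to both members.

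In high-dose mice 1 to 6, Pnpla3 stood at 0.72, 3.86, 0.16, 4.14, 0.00 and 4.45. Fasn stood at 1.70, 2.66, 2.29, 3.54, 1.39 and 3.52 in the same mice. Mice 2, 4 and 6 were the 3 highest for both of these genes, as for Thrsp and Mid1ip1. Both were picked for likeness to Thrsp by a measure in which the high-dose spread weighs most, so this order follows from the choice. Pnpla5 differed in mouse 2: it stood at -0.17, -0.06, -0.36, 0.89, -0.33 and 1.37, with only mice 4 and 6 clearly above the rest. Me1 and Acacb, genes of the lists below, were lowest in mouse 2 among the high-dose mice measured, at 2.41 and 4.11. A second Fasn probe, saturated on 10 arrays, gave a low-dose difference of 0.14, against 2.34 for the probe used.

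**Figure D4:**
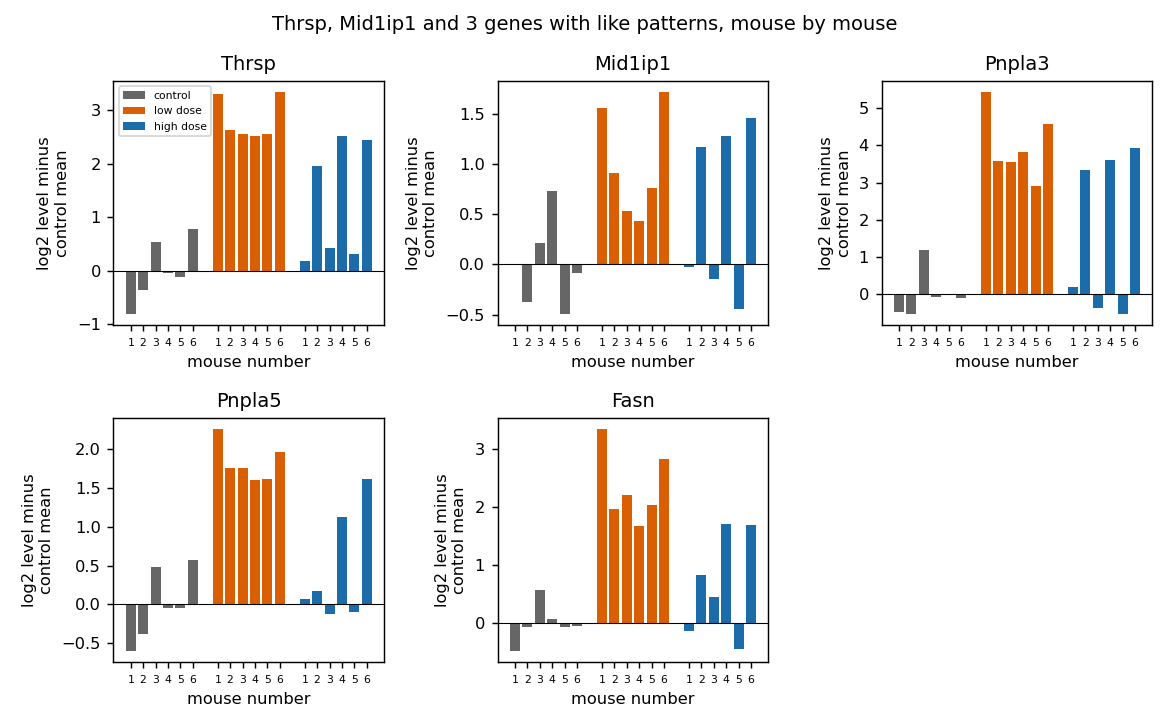
Level of Thrsp, Mid1ip1 and 3 genes near to Thrsp in pattern (Pnpla3, Pnpla5 and Fasn) in each mouse, as the log2 level minus the mean of the control mice, with a bar per mouse from 0. High-dose mice 2, 4 and 6 stand above high-dose mice 1, 3 and 5 in every panel, narrowly so for Pnpla5 in mouse 2. The 3 genes were picked for their likeness to Thrsp.

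The pathway that Spot 14 and MIG12 serve was followed through a list of 24 genes, all measured. This fatty acid synthesis list also holds Pnpla3, Gpam and Lpin1, genes of lipid droplets and triglyceride synthesis. At the low dose 6 of the 24 listed genes rose and 0 fell past an adjusted p of 0.05 (limma over 17689 genes). Of all genes 0.164% rose, 0.0961% fell and 0.26% were called in all. At an unadjusted p under 0.05, 13 of the 24 were higher and 0 lower, where 11.5% of all genes passed. Pnpla3 rose by 3.97 ± 0.75 on the log2 scale (adjusted p = 0.0419). Fasn rose by 2.34 ± 0.36 (adjusted p = 0.0174), and Gpam, which starts triglyceride synthesis, by 2.04 ± 0.33 (adjusted p = 0.0196). Elovl6, which lengthens palmitate, rose by 2.10 ± 0.39 (adjusted p = 0.0419). Acly, which supplies cytosolic acetyl-CoA, rose by 1.89 ± 0.36, and Lpin1, a phosphatidate phosphatase, by 1.08 ± 0.21 (adjusted p = 0.0428 for both). Of the 24, 19 were higher and 5 lower, with a median of 0.66 against -0.02 for all genes. These genes include ones already known to move in these arrays, so the count is a description. It was 0 with slide as a block, 0 with array brightness as a covariate, where no gene at all was called, and 0 without control mouse 5, low-dose mouse 1 or low-dose mouse 6, and 0 to 7 over all single arrays left out.

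At the high dose 0 of the 24 genes passed (limma, 0% of all genes called), and 2 were higher and 3 lower at an unadjusted p under 0.05, which 6.9% of all genes passed. Their median difference from control was -0.09, against 0.00 for all genes. The 4 with the smallest p were Elovl2 (-0.60, adjusted p = 0.654), Elovl3 (-0.87, adjusted p = 0.679), Scd1 (-0.33, adjusted p = 0.702, saturated on 9 arrays) and Scd2 (0.45, adjusted p = 0.702). Fasn stood at 0.68 and Pnpla3 at 1.69 above control, neither past the threshold. Set directly against the low dose, all 24 were lower at the high dose, with a median of -0.67, but 0 passed the adjusted threshold (limma, 0.0283% of all genes called) and 18 had an unadjusted p under 0.05, against 7.7% of all genes.

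**Figure D5:**
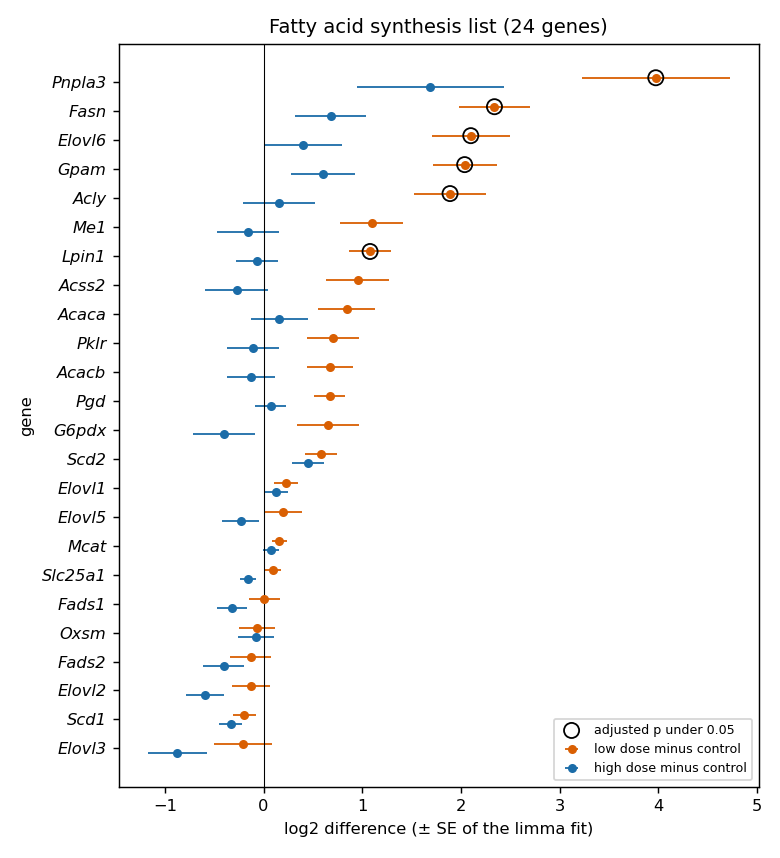
Log2 difference from control (± SE of the limma fit) of the 24 genes of the fatty acid synthesis list. The upper point of each pair is the low dose and the lower point 5000 µg/kg/day. Rings mark an adjusted p under 0.05, which 6 genes reached at the low dose and none at the high dose.

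Acetyl-CoA carboxylase and its protein partners, the list nearest to the known action of MIG12, had 0 of 10 members past the threshold at either dose or between doses (limma). At the low dose 2 were higher at an unadjusted p under 0.05, which 11.5% of all genes passed: Acaca, the lipogenic carboxylase of the cytosol (0.84, adjusted p = 0.252), and Acacb, the carboxylase at the mitochondrial surface (0.67, adjusted p = 0.255, 17 arrays). At the high dose 0 had an unadjusted p under 0.05. The 2 other Acaca probes gave larger low-dose differences, 1.81 and 1.35, and the other Acacb probe 1.33. Mid1, the microtubule partner after which Mid1ip1 is named, differed by 0.01 ± 0.34 at the low dose (adjusted p = 0.996). Its sign changed when single arrays were left out, between -0.13 and 0.20. Stk11, a kinase upstream of AMPK, stood at -0.16 (adjusted p = 0.485) and Prkaa1, an AMPK catalytic subunit, at -0.09 (adjusted p = 0.696). The median of the list was 0.05 for low minus control and 0.03 for high minus control. With normexp background correction, which moved the median of all genes to -0.11 at the low dose, Stk11 turned to 0.20 and Prkaa1 to 0.02.

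Of 27 regulators of Thrsp transcription, 0 passed the threshold in any comparison (limma), and at the low dose 3 were higher and 4 lower at an unadjusted p under 0.05, which 11.5% of all genes passed. Srebf1, the gene of SREBP-1c, stood 1.00 ± 0.26 above control at the low dose (adjusted p = 0.131, 17 arrays). At the high dose it stood 0.77 ± 0.25 above (adjusted p = 0.665), and its levels in high-dose mice 1 to 6 were 6.17, 6.85, 6.21, 7.05, 5.74 and 6.99, highest in mice 2, 4 and 6. Insig1, which holds SREBP in the endoplasmic reticulum, stood at 0.91 (adjusted p = 0.215), the xenobiotic receptor gene Nr1i3 (CAR) at -0.78 (adjusted p = 0.232) and Mlx, the partner of ChREBP, at 0.23 (adjusted p = 0.351). Mlxipl, the gene of ChREBP, stood at 0.25 (adjusted p = 0.600, 17 arrays). Mlxipl and Nr1i3 did not share the order of Srebf1 among high-dose mice: both were lowest in mouse 2, at 5.19 and 1.00. At the low dose the thyroid hormone receptor genes Thra and Thrb stood at -0.26 (adjusted p = 0.430) and -0.14 (adjusted p = 0.788). Nr1i2 (PXR) stood at -0.31 (adjusted p = 0.783). The median was -0.06 for low minus control and -0.10 for high minus control. With normexp Thra, Thrb and Nr1i2 turned to 0.02, 0.05 and 0.03, relative to a median of all genes that had moved to -0.11.

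Among 20 thyroid hormone targets of liver, 18 were measured and 0 passed the threshold in any comparison (limma), with 3 higher and 4 lower at the low dose at an unadjusted p under 0.05, which 11.5% of all genes passed. Me1, the malic enzyme that supplies NADPH and responds to thyroid hormone as Thrsp does, stood at 1.09 ± 0.32 (adjusted p = 0.162). Dio1, the hepatic deiodinase and a classic thyroid hormone target, stood at -1.40 ± 0.67 (adjusted p = 0.439). In low-dose mice 1 to 6 its levels were 1.88, 0.84, 1.65, 4.41, 3.29 and 4.34, against 3.33 to 4.72 in controls. The negative mean difference thus rests mostly on mice 1, 2 and 3. Cpt1a, which admits fatty acids to mitochondria, stood at -0.69 (adjusted p = 0.160), Klf9 at -0.53 (adjusted p = 0.257) and Apoa1, saturated on 17 arrays, at -0.37 (adjusted p = 0.191). The median of the list was -0.08 for low minus control and -0.05 for high minus control. When the fit held only low-dose and control mice, 1 member, Me1, passed.

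Of 14 ChREBP targets 0 passed in any comparison (limma), with 4 higher at the low dose at an unadjusted p under 0.05 (11.5% of all genes) and a median of 0.09. Those with the smallest p were Tkfc (0.52, adjusted p = 0.148), G6pc (0.71, adjusted p = 0.271), Pklr, the liver pyruvate kinase (0.71, adjusted p = 0.286), and Slc2a2, the hepatic glucose transporter (0.29, adjusted p = 0.431, 17 arrays). Of 18 targets of SREBP-1c and the liver X receptors, 5 rose at the low dose, against 0.164% of all genes. They were Fasn, Elovl6, Gpam and Pnpla3, which the fatty acid synthesis list also holds, and Pnpla5 (1.82 ± 0.28, adjusted p = 0.0174). The median was 0.26 for low minus control and 0.16 for high minus control, where 0 passed (limma) and 2 were higher and 1 lower at an unadjusted p under 0.05 (6.9% of all genes). The count of 5 was 0 with slide as a block, 0 with array brightness as a covariate and 0 without control mouse 5, low-dose mouse 1 or low-dose mouse 6. The ChREBP list and the SREBP-1c and LXR list share no gene, and Fasn, Elovl6, Gpam and Pnpla3 were placed only in the latter. The counts of these lists thus depend on that placing and do not tell the factors apart.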

How the data were processed

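Liver RNA of 18 mice was read on 18 Agilent arrays, 1 per mouse, of 45018 spots each. The deposited scanner files hold, per the file headers, the background-subtracted intensity of each spot from Agilent Feature Extraction, not normalised between arrays. Version 9.5 of that software and limma are named in the submitters' processing notes, without steps. The deposited value table of 22514 probes holds log2 values by the authors. These correlated with the log2 scanner intensity at 0.98 to 0.989 per array and had column medians of 7.91 to 7.94, with their exact background and scaling steps not given in the sources used here.

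Here log2 intensity minus the 75th percentile of each array was used. Outlier spots were dropped and repeated spots averaged. Probes well above background on at least 6 of 18 arrays were kept (25439 probes). The value of a gene was that of its brightest kept probe without saturated spots, or of its brightest probe where all had some (17690 genes, of which 477 had a missing value). Symbols were updated by accession in a RefSeq table (GRCm38.p6, names only, 23483 probes matched and 4888 symbols changed). Groups were compared with limma 3.58.1 in R 4.3.3 (lmFit and eBayes, all arrays, group only), two-sided, with Benjamini-Hochberg adjustment over all genes tested and a threshold of 0.05. The median SE of a log2 difference was 0.166, which the number of arrays limits. The script was tested on simulated data.

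The members and the gene lists were chosen with earlier results of these data known. Genes named are the members, the called genes of each list or its 4 with the smallest p, a set of regulators and partners, and the 5 genes nearest to each member. Some genes that these rules or lists would name are not reported here, and the lists are counted without them. Slides were taken from shared scan times. All arrays were scanned on 1 day. The closest arrays correlated at 0.986, so none was a copy of another. Alternatives were quantile or median scaling, normexp (offset 50), the deposited table, other filters, slide or mouse number as a block, 2 groups only, other probe choices and each array left out.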

Additional observations from a re-analysis of the deposited data

Results flagged for a closer look

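In 4 of 108 groups of 6 mice, or 5 where a value was missing, 1 mouse lay far from the others by Dixon's criterion. Chance flags about 1 in 20 groups. None of the groups was of Thrsp or Mid1ip1. Among genes near Thrsp in pattern, Pnpla3 stood at 1.72 in control mouse 3, against 0.01 to 0.5 in the other controls, and Rbm15 at 0.82 in low-dose mouse 1, against 0.16 to 0.36. Of the list genes, Nr1i3 stood at 1.0 in high-dose mouse 2, against 2.28 to 2.93 in the other high-dose mice. Prkaa1 stood at 0.57 in high-dose mouse 6, against 0.36 to 0.43.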

How the results depend on the processing

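Under all 30 alternatives each difference of Thrsp and Mid1ip1 kept its sign and moved by less than 1 SD between mice. Several of these alternatives could not move a difference of a gene with 1 probe, and so say nothing of its stability. They are the background filters, the brightest probe, only the 2 groups, mouse number as a block, and leaving out an array of the group not compared. Low minus control ranged from 2.38 to 3.13 for Thrsp and from 0.83 to 1.31 for Mid1ip1, and high minus control from 0.89 to 1.53 and from 0.37 to 0.74. High minus low ranged from -1.75 to -1.28 for Thrsp and from -0.62 to -0.24 for Mid1ip1. Counts of called genes were less stable. The 46 genes called between low dose and control became 9 with the array median, 7 with normexp, 72 with probes above background on all arrays, 15 with no filter, 2 with slide as a block, 84 with only the 2 groups and 0 with array brightness as a covariate. They became 2 to 70 when single arrays were left out, lowest without low-dose mouse 1 (2), control mouse 5 (4) and low-dose mouse 6 (5). The remaining arrays that moved this count by over 1.5 times were control mice 1 (8), 2 (14), 3 (29), 4 (8) and 6 (13), low-dose mice 2 (21), 3 (15), 4 (70) and 5 (19), and high-dose mice 1 (23) and 3 (20). The 5 genes called between the doses became 3 with the array median, 1 with normexp or no filter, 0 with slide as a block or only the 2 groups, and 1 to 9 without single arrays (9 without low-dose mouse 4, and 1 to 3 without any of control mice 1, 3 or 5, low-dose mice 1, 2, 3, 5 or 6, or high-dose mice 1, 3, 4, 5 or 6).

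The 6 called fatty acid synthesis genes became 2 with the array median or no filter, 3 with normexp, 0 with slide as a block and 0 to 7 without single arrays (0 without control mouse 5 or low-dose mice 1 or 6, 1 without control mouse 4, 2 or 3 without control mice 1, 2 or 6, low-dose mice 3 or 5, or high-dose mice 1 or 3). The 5 called SREBP-1c and LXR targets became 3 with the array median, normexp or no filter, 0 with slide as a block and 0 to 5 without single arrays (0 without control mouse 5 or low-dose mice 1 or 6, 2 or 3 without control mice 1, 2, 4 or 6 or low-dose mice 3 or 5). Between the doses, 0 to 1 genes of each of these lists were called without single arrays (1 without high-dose mouse 2 and 1 without high-dose mouse 6), and 1 SREBP-1c and LXR target with normexp. Among the authors' deposited values, 1 carboxylase gene, Acaca (0.99, adjusted p = 0.00478 in limma), was called, and with only the 2 groups 1 thyroid hormone target, Me1 (1.09, adjusted p = 0.0433).

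Low-dose medians with normexp were 0.14 for the carboxylase list, 0.23 for the regulators, 0.11 for thyroid hormone targets and 0.335 for ChREBP targets. High-dose medians were -0.0448 (quantile), 0.0559 (normexp) and -0.00233 (deposited table) for the regulators, with -0.10 to -0.0413 without single arrays (the last without high-dose mouse 3), and 0.0857 for thyroid hormone targets with normexp. High minus low of the regulators was -0.0773 with normexp. Normexp moved the median of all genes to -0.11 at the low dose, and no filter moved it to -0.10. The r of Thrsp with Mid1ip1 in low-dose mice was 0.922 with normexp. Signs turned at the low dose for Apoa1 (0.000755), Nr1i2 (0.0285), Prkaa1 (0.0237), Stk11 (0.20), Thra (0.0232) and Thrb (0.0537) with normexp, for Nr1i2 with slide as a block (0.00408), and for Mid1 without single arrays (-0.13 to 0.20). At the high dose Acaca turned with normexp (-0.0807), and Acacb ranged from -0.268 to 0.0683 without single arrays, above 0 without high-dose mouse 2. The causes were not tested.

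With mouse number as a replicate block, 5 genes were called between low dose and control and 0 between the doses, with 1 fatty acid synthesis gene and 2 SREBP-1c and LXR targets. The labels do not say what a number shares. Deviations from the group means correlated between same-numbered mice at -0.252 to 0.23 for low dose and control, at -0.029 to 0.349 for high dose and control (over 0.1 in 5 of 6 pairs) and at -0.307 to 0.25 between the doses. In these comparisons 2, 5 and 4 of 12 mice correlated best with their own number. Because the labels give no pairing, the numbers were not taken as pairs. Whether same-numbered mice share a factor was not tested.

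Each gene rests on 1 probe, 1 spot and 6 mice a group. The saturated Thrsp spot bounds its level in low-dose mouse 1 from below. At positions 2 and 3, which hold no controls, array position and a difference from control cannot be told apart. Both doses occur there. At position 2 Thrsp stood at 6.70 to 7.41 in low-dose and 4.50 to 6.03 in high-dose mice, and at position 3 at 6.59 to 7.37 and 4.25 to 4.38. Mid1ip1 stood at 4.28 to 5.08 and 3.23 to 4.53 at position 2, and at 3.80 to 4.92 and 2.93 to 3.34 at position 3.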
